A study of Homo sapiens with 15 samples.

Results

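The genes described here encode subunits of the 3 nuclear RNA polymerases. They were taken by symbol, as genes named POLR1, POLR2 or POLR3 followed by a letter, and 27 of the 19604 genes in the deposited tables are described. By the enzyme they belong to, 3 are specific to Pol I (POLR1A, POLR1B, POLR1E), 10 to Pol II (POLR2A, POLR2B, POLR2C, POLR2D, POLR2G, POLR2I, POLR2J, POLR2J2, POLR2J3, POLR2M) and 7 to Pol III (POLR3A, POLR3B, POLR3D, POLR3E, POLR3F, POLR3G, POLR3K). The remaining 7 are shared, 5 by all 3 enzymes (POLR2E, POLR2F, POLR2H, POLR2K, POLR2L) and 2 by Pol I and Pol III (POLR1C, POLR1D). A further 4 subunit genes carry older symbols that the name rule does not match and are given beside the 27: TWISTNB, CD3EAP and ZNRD1 of Pol I and CRCP of Pol III. POLR3C and POLR3GL were not analysed here.

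Pol I transcribes the large ribosomal RNA precursor, Pol II the messenger RNAs, and Pol III the transfer RNAs, 5S ribosomal RNA and other small RNAs. In each enzyme the largest and the second largest subunit form the catalytic centre between them, an alpha-like pair starts assembly, and peripheral subunits form a stalk and, in Pol I and Pol III, built-in counterparts of Pol II initiation factors. BET proteins are bromodomain readers of acetylated histones that help Pol II to be released from promoter-proximal pausing, and in leukaemia cells MYC is a well-known BET-dependent gene.

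RNA was sequenced from OCI-AML5, a human acute myeloid leukaemia cell line, in 5 groups of 3 libraries. In the drug experiment cells received 1000 nM ARV-825 for 4 h, a chimera that brings BET proteins to a ubiquitin ligase for degradation, or 1000 nM OTX015 for 4 h, a BET bromodomain inhibitor, and control cells are labelled as having no treatment, with no vehicle named. In the second experiment cells were transduced for 72 h with a RUNX1 shRNA or with a non-targeting shRNA; the sample titles of the first of these groups read Runx3, and its treatment label, RUNX1, was followed. All cells grew with 20% serum and 10 ng/mL GM-CSF, all groups are 1 cell line, and nothing in the labels says that replicates were separate cultures, so p-values measure the spread between libraries, which may be technical.

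Each value is a level per gene in FPKM, a fragment count corrected for transcript length and library size, which the authors quantile normalized within each of the 2 tables. The values are therefore relative to the rest of the RNA, fewer cells and less RNA per cell cannot be told apart, and no read depth is given, so no counting error can be attached to a level. In the drug libraries between 10496 and 10780 genes reached 1 FPKM, with the lowest counts with ARV-825 (10496 to 10588), and in the shRNA libraries between 10847 and 10927 did. Myeloid markers were at a mean of at least 1 FPKM for 8 of 8 genes in both tables, and markers of other cells for 0 of 7. The myeloid marker MPO was near that cut-off, at 0.526 to 1.61 FPKM in the drug libraries and 0.79 to 2.63 FPKM in the shRNA libraries. CSF2RA was also low, at 1.38 to 2.41 FPKM in the drug libraries and 1.49 to 2.87 FPKM in the shRNA libraries. As checks of the labels, RUNX1 was at 37.2, 42.9 and 36.0 FPKM with RUNX1 shRNA, against 69.8, 72.2 and 69.8 FPKM with non-targeting shRNA, and MYC averaged 23.0 ± 1.47 FPKM with ARV-825, 113 ± 1.87 FPKM with OTX015 and 288 ± 6.99 FPKM in control (SD, n = 3 each).

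The promoters of 4 subunit genes are shown first, as RefSeq gives them for GRCh38.p14, each running from 250 bases before to 50 after a gene start. They are POLR2A, the gene of the largest Pol II subunit (chr17:7484116-7484415, plus strand), POLR1B, of the second largest Pol I subunit (chr2:112542215-112542514, plus strand, the second of its pair of windows in the RefSeq table), POLR3A, of the largest Pol III subunit (chr10:78029466-78029765, minus strand), and POLR3E, a peripheral Pol III subunit gene (chr16:22297159-22297458, plus strand). POLR3D, the Pol III gene that fell furthest with both drugs, is not shown. Capitals mark matches to the letters searched.
POLR2A: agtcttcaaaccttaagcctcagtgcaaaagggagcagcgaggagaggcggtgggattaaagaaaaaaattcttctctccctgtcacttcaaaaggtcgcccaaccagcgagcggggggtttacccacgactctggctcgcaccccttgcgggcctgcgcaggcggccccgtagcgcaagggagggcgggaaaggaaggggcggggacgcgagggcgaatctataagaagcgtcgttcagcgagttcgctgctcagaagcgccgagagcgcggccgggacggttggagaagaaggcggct
POLR1B: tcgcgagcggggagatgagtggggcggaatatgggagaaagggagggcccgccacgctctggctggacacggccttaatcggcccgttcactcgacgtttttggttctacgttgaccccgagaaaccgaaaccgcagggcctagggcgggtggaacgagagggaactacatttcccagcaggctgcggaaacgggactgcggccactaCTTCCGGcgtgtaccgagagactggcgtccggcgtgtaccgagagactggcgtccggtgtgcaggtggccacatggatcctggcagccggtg
POLR3A: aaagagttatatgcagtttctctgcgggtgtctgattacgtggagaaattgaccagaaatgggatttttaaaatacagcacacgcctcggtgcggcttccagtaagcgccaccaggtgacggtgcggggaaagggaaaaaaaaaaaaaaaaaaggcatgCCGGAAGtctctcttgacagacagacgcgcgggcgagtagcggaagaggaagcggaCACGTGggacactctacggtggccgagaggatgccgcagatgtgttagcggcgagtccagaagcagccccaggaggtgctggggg
POLR3E: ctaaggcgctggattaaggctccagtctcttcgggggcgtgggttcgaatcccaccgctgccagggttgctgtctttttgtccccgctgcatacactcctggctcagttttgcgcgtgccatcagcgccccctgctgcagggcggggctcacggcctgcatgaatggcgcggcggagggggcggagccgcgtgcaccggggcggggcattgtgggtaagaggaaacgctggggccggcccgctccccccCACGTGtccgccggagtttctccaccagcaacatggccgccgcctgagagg
The letters searched on both strands were CACGTG (the E-box that MYC and its partner MAX can bind), CCGGAAG (an ETS-type motif), TATAAA and TGTGGT (the core of RUNX motifs). Of the 27 genes, 19 had a window in the table, with 24 windows in all. CACGTG was found in 2 of the 24 windows, a share near the 7.26% of all 35116 windows, and in that of CD3EAP. The 2 are the windows of POLR3A and POLR3E, so the Pol III promoters printed here do not stand for the other Pol III genes. The motif begins 35 bases before the start in POLR3A. In POLR3E it begins 1 base before the start and runs across it. CCGGAAG was found in 10 of the 24 windows, against 10.3% of all windows. Those 10 belong to 8 genes (POLR1B, POLR1C, POLR2C, POLR2D, POLR2F, POLR2J2, POLR2M and POLR3A), and in the POLR1B window shown it lies on the minus strand 42 bases before the start. TATAAA was in the window of POLR2M alone among the 19 (11.5% of all windows), TGTGGT was in 0 of the 19 (13.1% of all windows), and the POLR2A window held none of the 4 motifs. The only matches that shared bases were a CCGGAAG pair in POLR1C, at 127 and 124 bases before the start. Median GC content was 63.7% over the 24 windows and 58.7% over all windows, and the median number of CG dinucleotides was 28 and 14. CCGGAAG itself holds a CG, and whether its share follows from the CG content of these windows was not tested.

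The POLR3E window also runs into a Pol III gene. Its first bases belong to TRL-AAG2-4, a leucine tRNA gene that RefSeq places at chr16:22297140-22297221, with its near end 188 bases before the POLR3E start. A tRNA gene overlapped 1 of the 24 subunit windows and 29 of all 35116 (0.0826%). The tables hold no tRNA level, so the POLR3E values below are those of the protein-coding gene.

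In cells without drug the shared subunit genes had the highest class median and the Pol III genes the lowest. Single genes of the classes overlapped, with POLR3E at a mean of 24.5 FPKM and the shared POLR1C at 19.4 FPKM in control. Over control libraries the median of the gene means was 56.3 FPKM for the 7 shared genes, 32.2 FPKM for Pol II, 18.2 FPKM for Pol I and 7.84 FPKM for Pol III. POLR2E, a subunit of all 3 enzymes, was at the top with 135 ± 3.38 FPKM, followed by POLR1D with 73.0 ± 0.966 FPKM and POLR2A with 69.9 ± 6.14 FPKM, whose ranges overlapped. The bottom of the order was POLR3F at 4.19 ± 0.190 FPKM, below POLR3B at 6.86 ± 0.0315 FPKM and POLR3A at 7.43 ± 0.154 FPKM (SD, n = 3 for each). Of the 26 neighbouring pairs in that order, 13 had ranges that did not overlap and 13 had ranges that did, so many neighbours do not differ beyond their spread. In non-targeting shRNA cells the medians kept this order of classes, with 61.7 FPKM for shared, 38.2 FPKM for Pol II, 25.4 FPKM for Pol I and 11.2 FPKM for Pol III genes. The 2 tables were normalized separately, so levels are not compared between them.

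**Figure D1:**
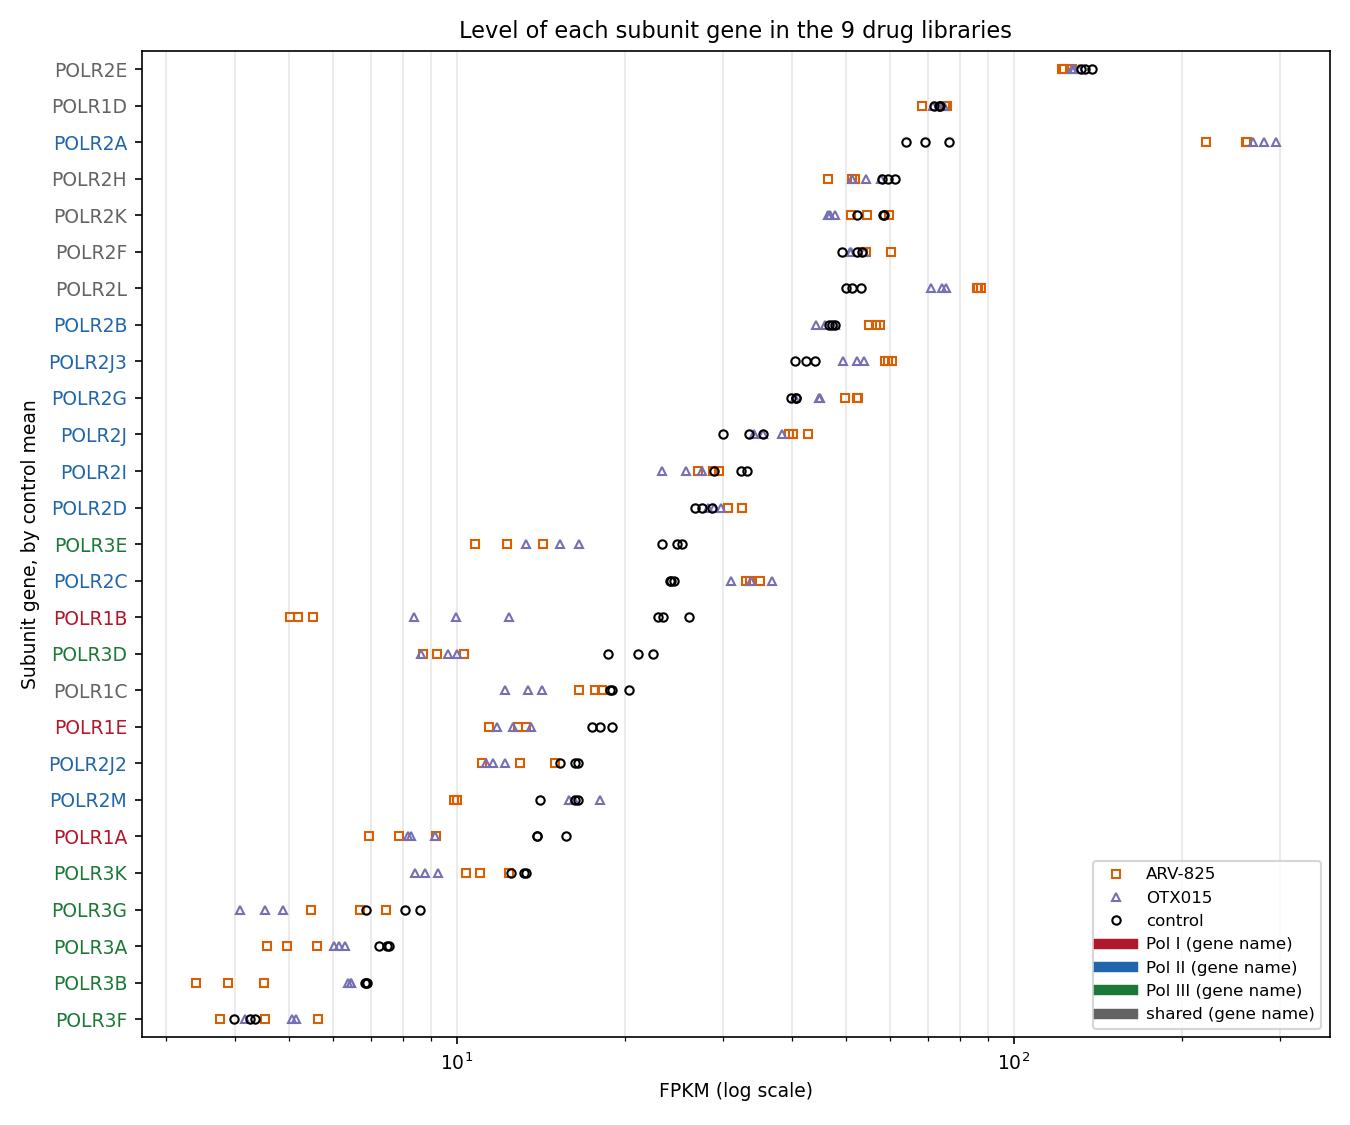
Level of each of the 27 subunit genes in the 9 drug libraries, in FPKM on a log axis, with genes ordered by their mean in control and gene names coloured by enzyme (squares, ARV-825; triangles, OTX015; circles, control). POLR2A stands to the right of its control values in all 6 drug libraries (221 to 295 against 64.1 to 76.3 FPKM), and POLR1B stands to the left (5.01 to 12.4 against 23.0 to 26.1 FPKM).

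After 4 h with either drug the Pol I genes fell and 5 of the 7 Pol III genes fell, while the shared genes centred near 0. The 5 were not the same genes. POLR3A, POLR3D, POLR3E and POLR3K were called lower with both drugs, POLR3B with ARV-825 alone and POLR3G with OTX015 alone. Of the 10 Pol II genes 7 rose and 2 fell with ARV-825, and 3 rose and 2 fell with OTX015. Genes were tested with limma on log2(FPKM + 1), a scale that understates changes of low genes, over the 10819 genes that averaged 1 FPKM or more, and all 27 subunit genes passed that filter. A gene was called at a Benjamini-Hochberg adjusted p under 0.05. The ARV-825 and OTX015 comparisons share their 3 control libraries, so the values of each are given side by side and are not independent.

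With ARV-825, 8 of the 27 genes were called higher, or 29.6%, beside 35.8% of all tested genes, and 12 were called lower, or 44.4%, beside 38.4%. The median log2 change was -0.14 over the 27 genes and -0.01 over all tested genes. For Pol I 3 of 3 genes were lower (median -0.79), and 6 of 6 when TWISTNB, CD3EAP and ZNRD1 are added (median -0.78). For Pol III 5 of 7 were lower and 0 higher (median -0.48). For Pol II 7 of 10 were higher and 2 lower (median 0.27, and 0.25 without POLR2A). The 2 lower were POLR2J2, a near-identical copy of POLR2J, and POLR2M, which encodes a Pol II-associated protein. POLR2J3, another copy of POLR2J, was among the 7 higher. Of the shared genes 1 of 7 was higher and 2 were lower (median -0.03).

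With OTX015, 4 of the 27 genes were called higher, or 14.8%, beside 36.1% of all tested genes, and 12 were called lower, or 44.4%, beside 33.5%. The median log2 change was -0.08 over the 27 genes, against 0.03 over all tested genes. Pol I had 3 of 3 genes lower (median -0.70), and 6 of 6 with the older symbols (median -0.69). Pol III had 5 of 7 lower and 0 higher (median -0.51). Pol II had 3 of 10 higher and 2 lower, shares of 30% and 20% that were below those of all tested genes (median 0.10, and 0.09 without POLR2A), and the shared genes had 1 of 7 higher and 2 lower (median -0.06).

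**Figure D2:**
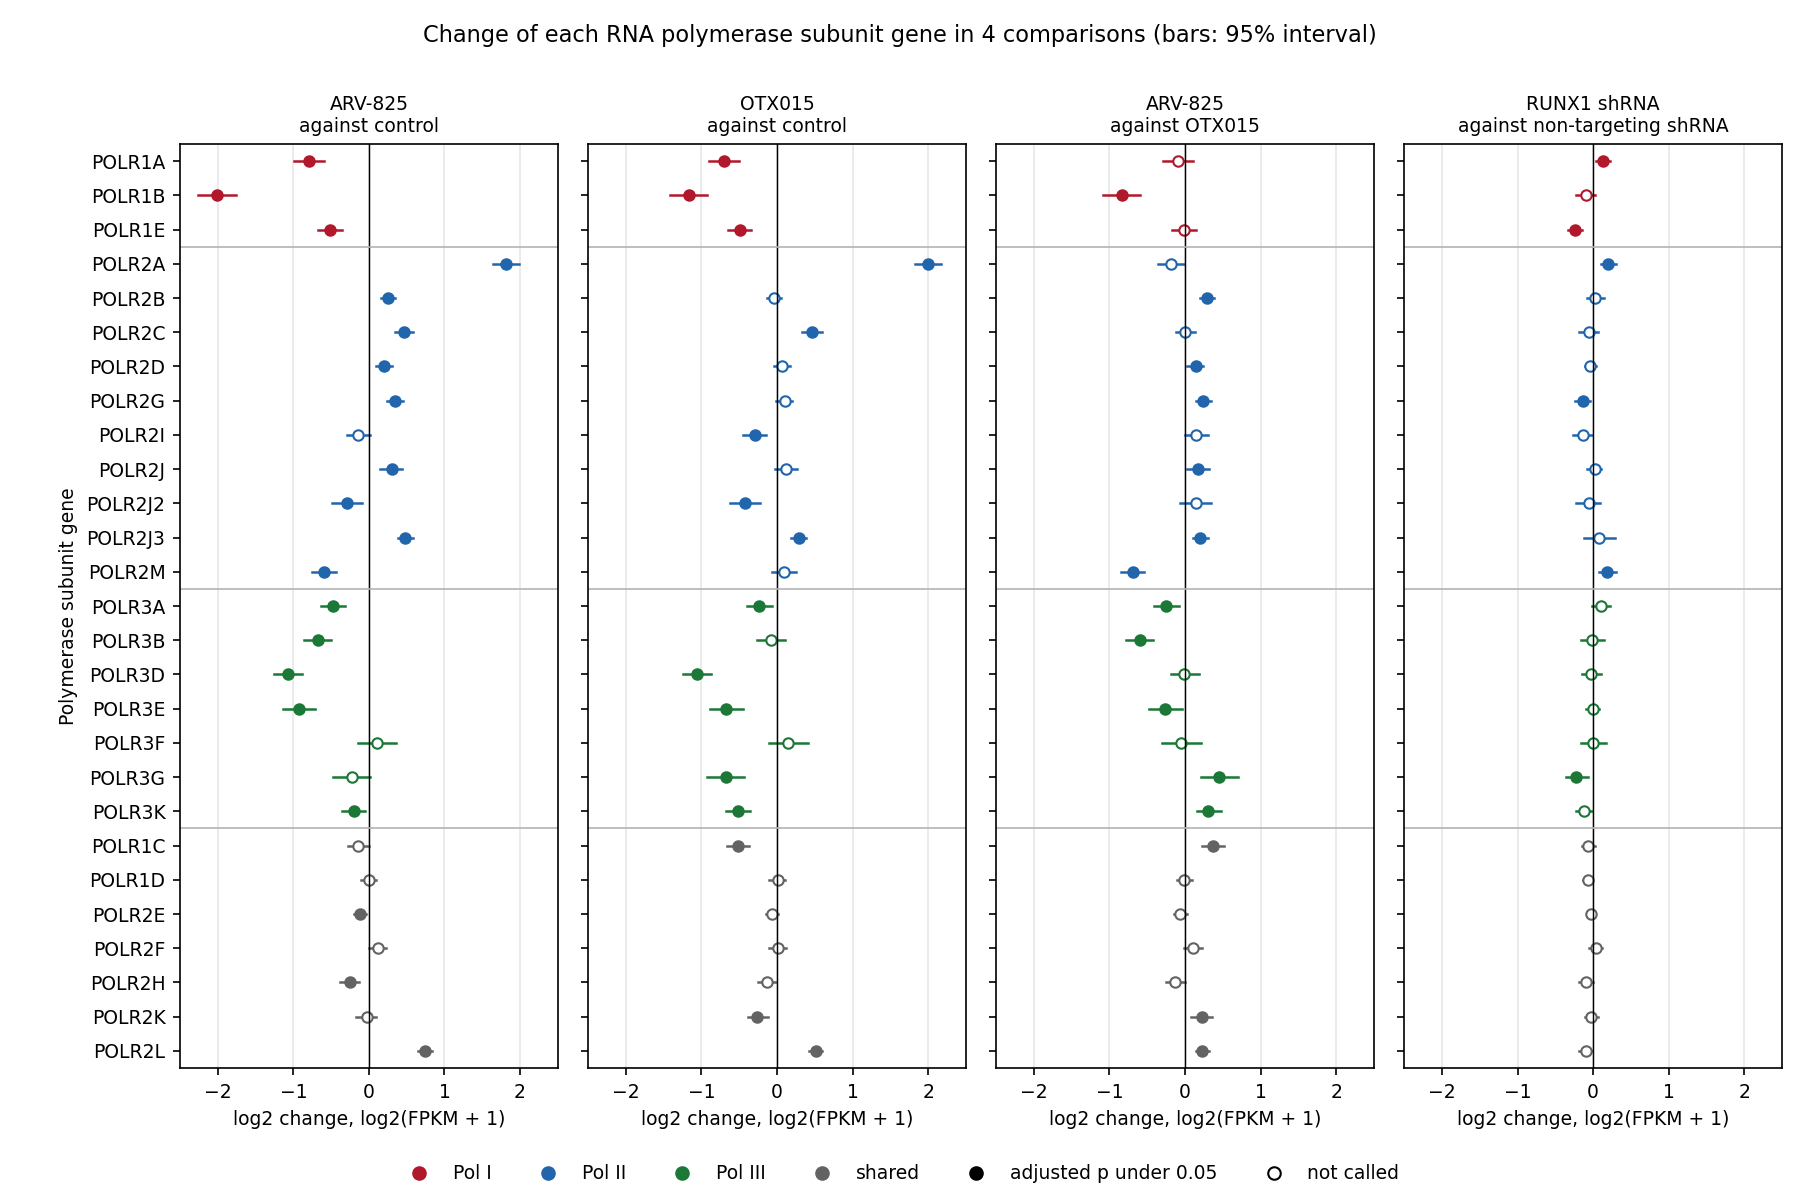
Fitted log2 change of each subunit gene on the log2(FPKM + 1) scale in 4 comparisons, with 95% intervals, filled where the adjusted p is under 0.05, grouped by enzyme from Pol I at the top to shared subunits at the bottom. The 3 Pol I genes lie left of 0 for ARV-825 and for OTX015, POLR2A lies at 1.81 and 2.00, and in the RUNX1 shRNA panel the 27 values lie between -0.24 and 0.20.

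The genes of the largest subunits moved in opposite directions with both drugs. POLR2A, which carries the C-terminal repeat domain whose phosphorylation marks stages of transcription, had 261, 262 and 221 FPKM with ARV-825, 268, 281 and 295 FPKM with OTX015, and 64.1, 76.3 and 69.3 FPKM in control. Every drug library was above every control library. The mean was 3.55 times the control mean with ARV-825 (log2 change 1.81 ± 0.078 SE, limma adjusted p = 9.18e-09) and 4.02 times with OTX015 (2.00 ± 0.078 SE, adjusted p = 7.12e-09). Among the 10819 tested genes it ranked 97 from the highest change with ARV-825 and 44 with OTX015.

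POLR1A and POLR3A, the counterparts of POLR2A in Pol I and Pol III, fell. POLR1A had 7.89, 9.16 and 6.96 FPKM with ARV-825, 8.29, 8.18 and 9.14 FPKM with OTX015, and 15.7, 13.9 and 13.9 FPKM in control. Its log2 change was -0.79 ± 0.091 SE with ARV-825 (adjusted p = 1.44e-05) and -0.70 ± 0.091 SE with OTX015 (adjusted p = 4.69e-05). Both drug groups lay below the control range and overlapped each other. POLR3A had 4.96, 5.62 and 4.57 FPKM with ARV-825, 6.02, 6.15 and 6.31 FPKM with OTX015, and 7.26, 7.56 and 7.48 FPKM in control, so that the 3 groups did not overlap. Its change was -0.48 ± 0.073 SE with ARV-825 (adjusted p = 0.000126) and -0.24 ± 0.073 SE with OTX015 (adjusted p = 0.0144).

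Of the second largest subunits, POLR1B of Pol I changed most. It had 5.53, 5.01 and 5.19 FPKM with ARV-825, 9.98, 8.38 and 12.4 FPKM with OTX015, and 26.1, 23.0 and 23.4 FPKM in control. The 3 groups did not overlap, and the mean with ARV-825 was 0.217 times the control mean. The log2 change was -2.01 ± 0.111 SE with ARV-825 (adjusted p = 5.15e-08), which ranked 108 from the lowest of all tested genes, and -1.17 ± 0.111 SE with OTX015 (adjusted p = 4.43e-06).

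POLR3B of Pol III and POLR2B of Pol II changed with ARV-825 and were not called with OTX015. POLR3B had 3.89, 3.40 and 4.51 FPKM with ARV-825, 6.47, 6.46 and 6.38 FPKM with OTX015, and 6.86, 6.84 and 6.90 FPKM in control (-0.68 ± 0.082 SE, adjusted p = 2.04e-05 with ARV-825; -0.08 ± 0.082 SE, adjusted p = 0.398 with OTX015). POLR2B had 57.4, 55.0 and 56.5 FPKM with ARV-825, 45.8, 44.2 and 47.8 FPKM with OTX015, and 47.8, 46.6 and 47.1 FPKM in control (0.25 ± 0.041 SE, adjusted p = 0.000209 with ARV-825; -0.04 ± 0.041 SE, adjusted p = 0.417 with OTX015). ARV-825 libraries were apart from both other groups for both genes, below them for POLR3B and above them for POLR2B.

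**Figure D3:**
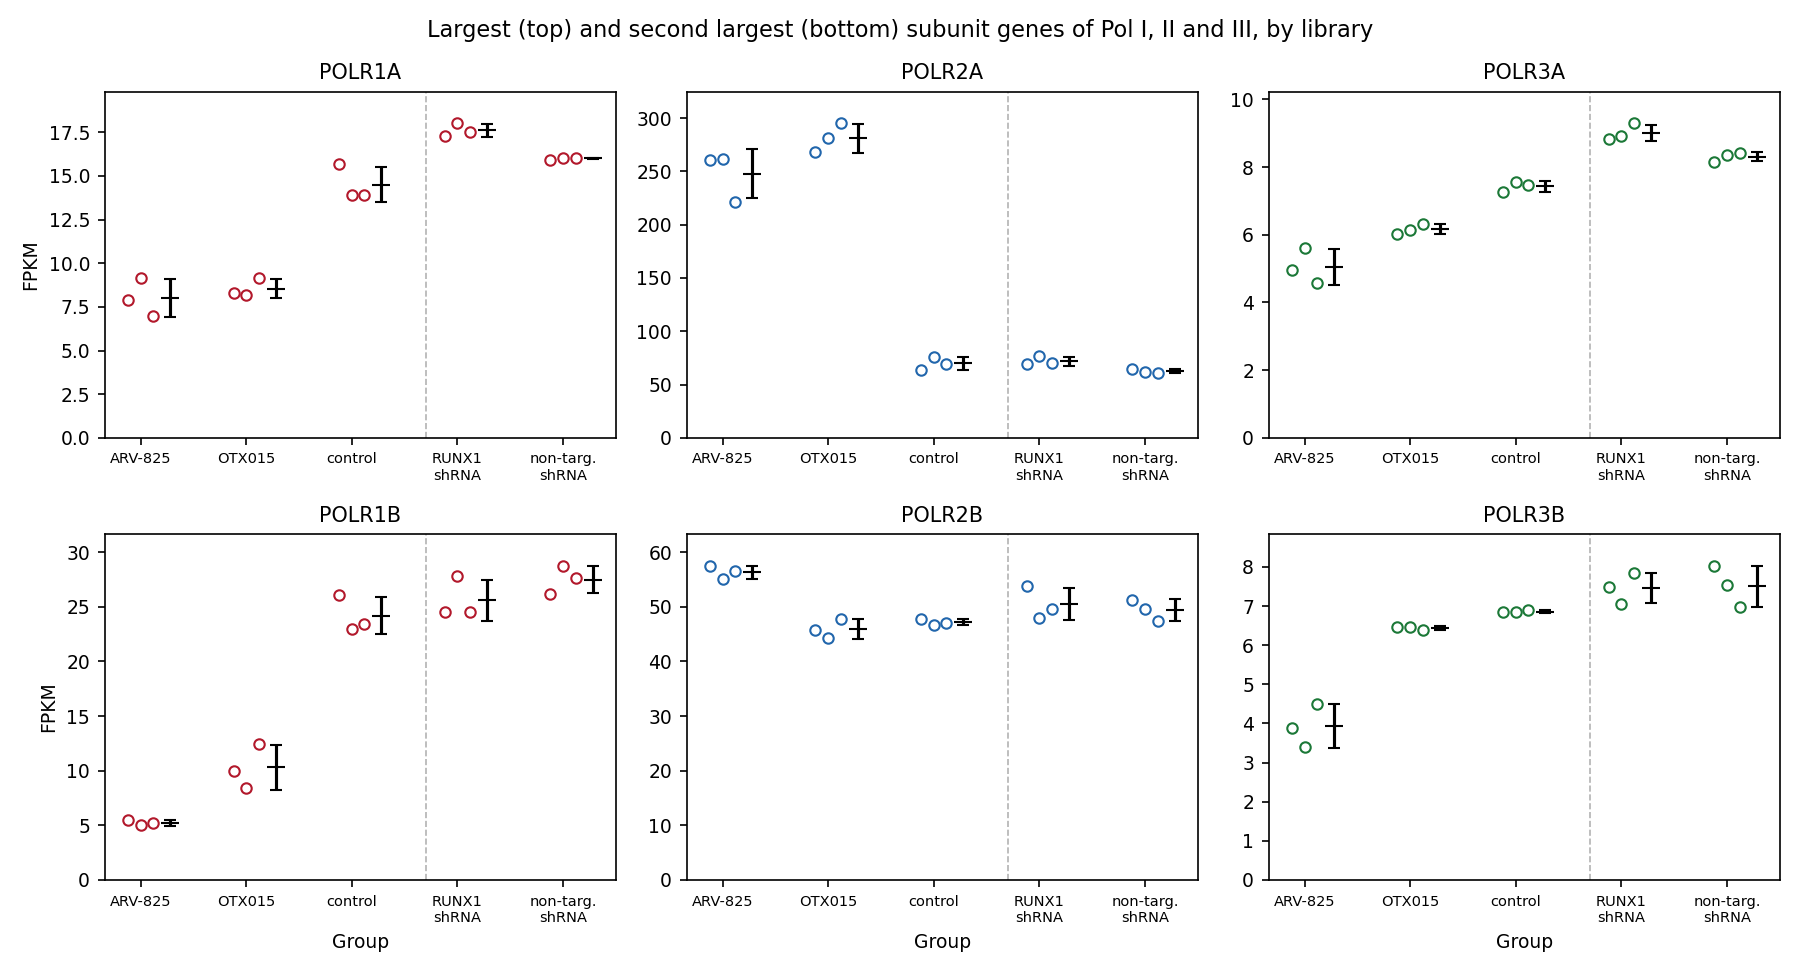
Levels in FPKM of the largest (top row) and the second largest (bottom row) subunit genes of Pol I, Pol II and Pol III in each library of the 5 groups, with bars for the mean and SD of 3 libraries; the dashed line parts the 2 tables, which were normalized separately. POLR2A is higher in the ARV-825 and OTX015 groups than in control, and POLR1A, POLR1B and POLR3A are lower.

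The levels of the 2 catalytic subunit genes of an enzyme were also set against each other within each library, as a ratio on the FPKM scale. POLR2A over POLR2B was 4.55, 4.76 and 3.92 with ARV-825, 5.84, 6.36 and 6.18 with OTX015, and 1.34, 1.64 and 1.47 in control. POLR1A over POLR1B was 1.43, 1.83 and 1.34 with ARV-825, 0.831, 0.976 and 0.736 with OTX015, and 0.601, 0.606 and 0.594 in control. For both ratios the drug libraries were above every control library. POLR3A over POLR3B was 1.27, 1.65 and 1.01 with ARV-825, 0.930, 0.952 and 0.988 with OTX015, and 1.06, 1.11 and 1.08 in control, so the ARV-825 range included the control range and OTX015 lay below it. Across enzymes POLR2A over POLR1A averaged 31.2 ± 2.32 with ARV-825, 33.0 ± 1.19 with OTX015 and 4.85 ± 0.704 in control (SD, n = 3 each).

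Summed over the genes of a class, the Pol I level was 25.8 ± 0.463 FPKM with ARV-825, 31.5 ± 1.72 FPKM with OTX015 and 56.9 ± 3.41 FPKM in control. The 7 Pol III genes summed to 53.3 ± 1.18 FPKM with ARV-825, 55.2 ± 2.16 FPKM with OTX015 and 84.6 ± 3.88 FPKM in control. The shared genes summed to 462 ± 14.2 FPKM with ARV-825, 442 ± 12.1 FPKM with OTX015 and 446 ± 5.44 FPKM in control (SD, n = 3 each). POLR2A supplied most of the higher Pol II sum. The 10 Pol II genes summed to 574 ± 23.3 FPKM with ARV-825, 575 ± 7.82 FPKM with OTX015 and 348 ± 11.9 FPKM in control, and the other 9 without POLR2A to 325 ± 2.6 FPKM with ARV-825, 294 ± 6.72 FPKM with OTX015 and 278 ± 7.27 FPKM in control.

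The built-in TFIIF-like subunits, which take part in initiation and elongation, fell in both Pol I and Pol III. POLR3D had 9.21, 8.68 and 10.3 FPKM with ARV-825, 10.0, 8.63 and 9.64 FPKM with OTX015, and 22.5, 18.7 and 21.1 FPKM in control (-1.07 ± 0.085 SE, adjusted p = 7.96e-07 with ARV-825; -1.06 ± 0.085 SE, adjusted p = 1.20e-06 with OTX015). POLR3E had 12.3, 14.3 and 10.8 FPKM with ARV-825, 15.3, 16.6 and 13.3 FPKM with OTX015, and 24.8, 23.3 and 25.4 FPKM in control (-0.93 ± 0.098 SE, adjusted p = 7.05e-06 with ARV-825; -0.67 ± 0.098 SE, adjusted p = 0.000116 with OTX015). All drug libraries lay below the control libraries for both, and the ranges of the 2 drugs overlapped each other.

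In Pol I the counterparts are POLR1E and CD3EAP. POLR1E had 12.9, 11.4 and 13.3 FPKM with ARV-825, 12.6, 13.6 and 11.8 FPKM with OTX015, and 19.0, 18.1 and 17.5 FPKM in control (-0.51 ± 0.071 SE, adjusted p = 6.58e-05 with ARV-825; -0.49 ± 0.071 SE, adjusted p = 0.000105 with OTX015). CD3EAP had 4.52, 4.90 and 4.95 FPKM with ARV-825, 4.17, 4.31 and 4.5 FPKM with OTX015, and 10.5, 10.7 and 11 FPKM in control (-1.02 ± 0.063 SE, adjusted p = 1.14e-07 with ARV-825; -1.14 ± 0.063 SE, adjusted p = 7.82e-08 with OTX015). Drug and control libraries were apart for both genes.

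The stalk, which binds the emerging RNA, differed by enzyme. TWISTNB of Pol I had 8.34, 6.97 and 7.43 FPKM with ARV-825, 7.44, 7.64 and 8.71 FPKM with OTX015, and 13.2, 11.9 and 14.6 FPKM in control (-0.73 ± 0.091 SE, adjusted p = 2.59e-05 with ARV-825; -0.67 ± 0.091 SE, adjusted p = 6.18e-05 with OTX015). It fell with both drugs, and no drug library reached a control library. CRCP of Pol III also fell, with changes of -0.33 ± 0.065 SE with ARV-825 (adjusted p = 0.000956) and -0.24 ± 0.065 SE with OTX015 (adjusted p = 0.00677).

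The Pol II stalk genes rose with ARV-825. POLR2G had 52.5, 49.7 and 52.3 FPKM with ARV-825, 44.7, 44.8 and 40.5 FPKM with OTX015, and 40.7, 40.7 and 39.8 FPKM in control (0.34 ± 0.047 SE, adjusted p = 6.17e-05 with ARV-825; 0.10 ± 0.047 SE, adjusted p = 0.0917 with OTX015). POLR2D had 32.5, 32.5 and 30.7 FPKM with ARV-825, 28.2, 29.8 and 28.9 FPKM with OTX015, and 26.8, 28.7 and 27.5 FPKM in control (0.20 ± 0.045 SE, adjusted p = 0.00216 with ARV-825; 0.06 ± 0.045 SE, adjusted p = 0.225 with OTX015). ARV-825 libraries were above control libraries for both, whereas OTX015 and control overlapped.

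Of the alpha-like assembly subunits, POLR2C rose with both drugs, and POLR1C was called lower with OTX015 alone of the 2 drugs. POLR2C of Pol II had 33.6, 33.0 and 35.0 FPKM with ARV-825, 36.8, 33.7 and 31.1 FPKM with OTX015, and 24.1, 24.2 and 24.5 FPKM in control (0.47 ± 0.057 SE, adjusted p = 2.47e-05 with ARV-825; 0.46 ± 0.057 SE, adjusted p = 3.41e-05 with OTX015). All 6 drug libraries were above control. POLR1C, which serves Pol I and Pol III, had 18.2, 16.6 and 17.7 FPKM with ARV-825, 14.2, 13.4 and 12.2 FPKM with OTX015, and 20.4, 19.0 and 18.8 FPKM in control (-0.14 ± 0.064 SE, adjusted p = 0.0623 with ARV-825; -0.52 ± 0.064 SE, adjusted p = 3.27e-05 with OTX015). Its partner POLR1D was not called with either drug. It had 75.3, 68.3 and 75.7 FPKM with ARV-825, 73.8, 74.8 and 71.5 FPKM with OTX015, and 72.0, 73.4 and 73.8 FPKM in control, with 95% intervals of the log2 change from -0.10 to 0.10 with ARV-825 and from -0.10 to 0.11 with OTX015.

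POLR2J, the Pol II partner of POLR2C, has near-identical copies in POLR2J2 and POLR2J3, so the division of reads among the 3 is uncertain. POLR2J had 42.7, 39.4 and 40.1 FPKM with ARV-825, 38.3, 35.5 and 34.2 FPKM with OTX015, and 30.0, 33.5 and 35.5 FPKM in control, and rose with ARV-825 (0.30 ± 0.065 SE, adjusted p = 0.00173). It was not called with OTX015 (0.12 ± 0.065 SE, adjusted p = 0.117). POLR2J3 had 59.3, 60.5 and 58.8 FPKM with ARV-825, 52.2, 49.4 and 53.8 FPKM with OTX015, and 42.4, 40.5 and 44.0 FPKM in control. POLR2J2 had 11.1, 13 and 15 FPKM with ARV-825, 12.2, 11.6 and 11.3 FPKM with OTX015, and 15.3, 16.3 and 16.5 FPKM in control. POLR2J3 rose (0.48 ± 0.045 SE with ARV-825 and 0.29 ± 0.045 SE with OTX015) and POLR2J2 fell (-0.29 ± 0.090 SE with ARV-825 and -0.42 ± 0.090 SE with OTX015), with adjusted p from 2.79e-06 to 0.0135 over the 4 values.

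Among the zinc ribbon subunits, which assist RNA cleavage or rest on the same fold, ZNRD1 of Pol I fell. It had 11.3, 11.1 and 12.1 FPKM with ARV-825, 13.2, 14.2 and 12.2 FPKM with OTX015, and 20.5, 20.1 and 20.0 FPKM in control (-0.77 ± 0.062 SE, adjusted p = 8.77e-07 with ARV-825; -0.58 ± 0.062 SE, adjusted p = 9.65e-06 with OTX015). POLR3K of Pol III had 11, 10.4 and 12.4 FPKM with ARV-825, 8.76, 9.27 and 8.42 FPKM with OTX015, and 13.3, 12.5 and 13.2 FPKM in control (-0.20 ± 0.070 SE, adjusted p = 0.0233 with ARV-825; -0.51 ± 0.070 SE, adjusted p = 6.65e-05 with OTX015). The ARV-825 call of POLR3K was lost without ARV-825 replicate 1 or 2, or without control replicate 1 or 3, with adjusted p from 0.0652 to 0.0839. POLR2I of Pol II had 28.8, 29.6 and 27.1 FPKM with ARV-825, 27.5, 25.8 and 23.3 FPKM with OTX015, and 28.9, 32.4 and 33.2 FPKM in control (-0.14 ± 0.070 SE, adjusted p = 0.0933 with ARV-825; -0.29 ± 0.070 SE, adjusted p = 0.00326 with OTX015).

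Pol III has an initiation trimer, of which POLR3F and POLR3G were measured. POLR3F had 5.63, 3.76 and 4.53 FPKM with ARV-825, 5.06, 5.14 and 4.16 FPKM with OTX015, and 4.25, 4.35 and 3.98 FPKM in control, was called in neither comparison, and was the Pol III gene with the widest intervals (-0.15 to 0.36 with ARV-825 and -0.11 to 0.41 with OTX015). POLR3G, a trimer subunit known for high levels in embryonic stem cells and some tumours, had 5.47, 6.71 and 7.46 FPKM with ARV-825, 4.87, 4.09 and 4.52 FPKM with OTX015, and 8.08, 6.86 and 8.60 FPKM in control. It fell with OTX015 (-0.68 ± 0.111 SE, adjusted p = 0.000235), where the groups were apart, and was not called with ARV-825 (-0.23 ± 0.111 SE, adjusted p = 0.0787), where they overlapped. Without ARV-825 replicate 3 or control replicate 2 the ARV-825 value was called, at adjusted p = 0.025 and 0.0354.

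Of the genes for subunits common to all 3 enzymes, POLR2L moved furthest. It encodes a small zinc-binding subunit of the assembly platform and had 86.2, 87.4 and 86.0 FPKM with ARV-825, 74.4, 75.6 and 71.0 FPKM with OTX015, and 51.3, 50 and 53.2 FPKM in control. The 3 groups did not overlap (0.74 ± 0.040 SE, adjusted p = 4.25e-08 with ARV-825; 0.51 ± 0.040 SE, adjusted p = 1.02e-06 with OTX015). POLR2E, POLR2F, POLR2H and POLR2K had changes from -0.25 to 0.12 with ARV-825 and from -0.26 to 0.01 with OTX015. Of these POLR2E (-0.12) and POLR2H (-0.25) fell with ARV-825 and POLR2K (-0.26) fell with OTX015, and the POLR2E call was lost without control replicate 2 (adjusted p = 0.0567).

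POLR2M encodes Gdown1, a Pol II-associated protein that competes with the initiation factor TFIIF. Its level was 10.0, 10.0 and 9.88 FPKM with ARV-825, 15.9, 16.2 and 18.1 FPKM with OTX015, and 14.1, 16.5 and 16.3 FPKM in control. It fell with ARV-825 (-0.60 ± 0.070 SE, adjusted p = 1.56e-05), with all 3 libraries below the others, and was not called with OTX015 (0.09 ± 0.070 SE, adjusted p = 0.250). POLR2M shares its strand and part of its span with GCOM1 in GENCODE 29, so reads of that readthrough gene may be included.

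**Figure D4:**
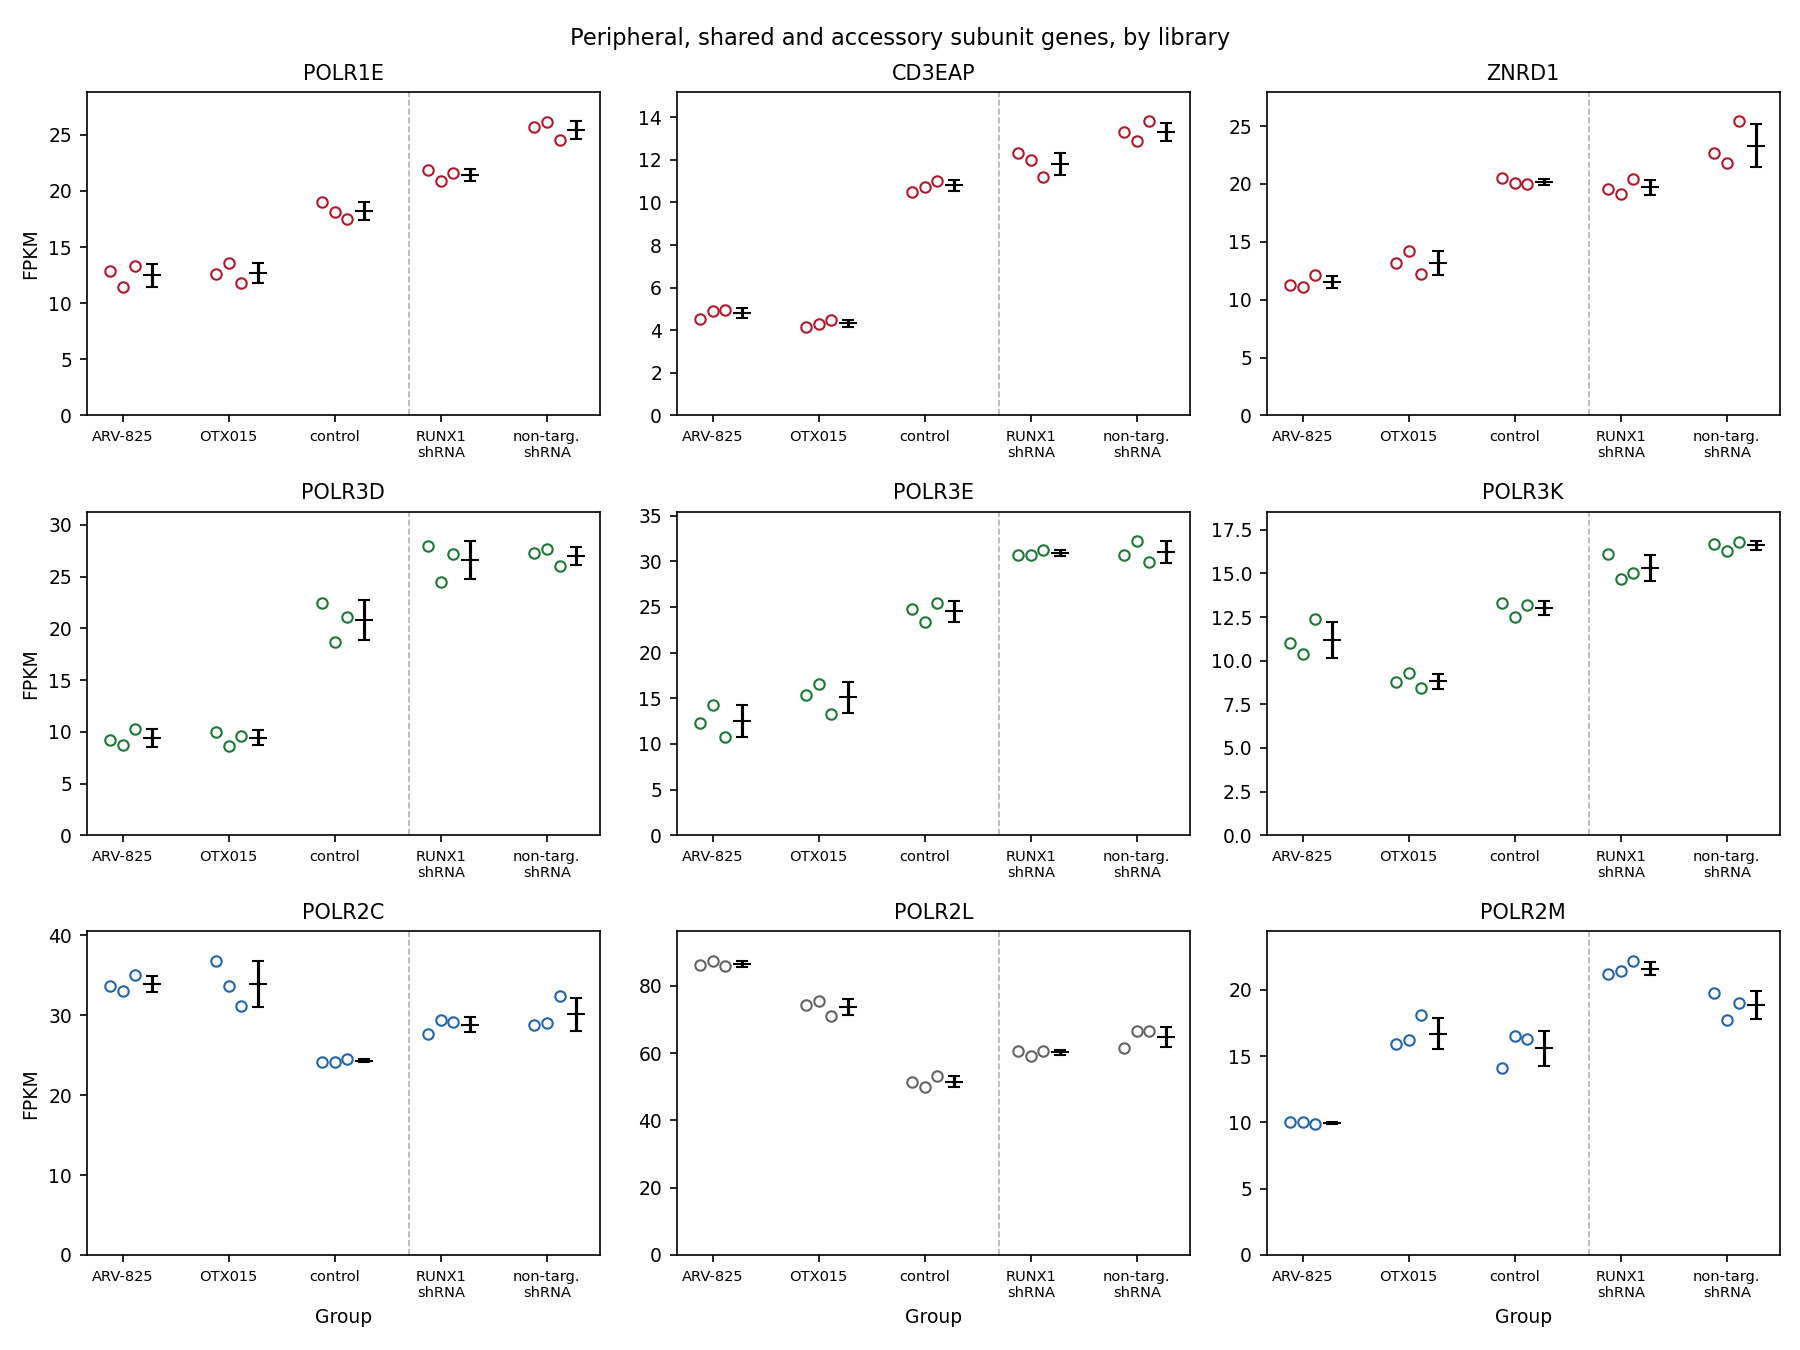
Levels in FPKM of 9 peripheral, shared and accessory subunit genes in each library of the 5 groups, with bars for the mean and SD of 3 libraries; the dashed line parts the 2 tables, which were normalized separately. POLR1E, CD3EAP, ZNRD1, POLR3D, POLR3E and POLR3K are lower with both drugs than in control, POLR2C and POLR2L are higher, and POLR2M is lower with ARV-825 alone of the 2 drugs.

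Set directly against OTX015, ARV-825 gave higher levels of several Pol II and shared genes and lower levels of POLR1B, POLR2M and POLR3B. Of the 27 genes, 10 were called higher with ARV-825 (37.0%, beside 24.7% of all tested genes) and 5 lower (18.5%, beside 33.4%). The median log2 change, ARV-825 minus OTX015, was 0.00 over the 27 and -0.04 over all tested genes. By class 5 of 10 Pol II genes were higher and 1 lower (median 0.14), 3 of 7 shared genes were higher and 0 lower (0.11), 2 of 7 Pol III genes were higher and 3 lower (-0.05), and 1 of 3 Pol I genes was lower (-0.09).

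The widest differences between the drugs were in POLR1B (-0.84 ± 0.111 SE, adjusted p = 0.000114), POLR2M (-0.69 ± 0.070 SE, adjusted p = 1.94e-05) and POLR3B (-0.60 ± 0.082 SE, adjusted p = 0.000133), with no overlap between the 2 drug groups in any of the 3. In the other direction POLR3G differed by 0.45 ± 0.111 SE (adjusted p = 0.00505), POLR1C by 0.37 ± 0.064 SE (adjusted p = 0.000586), POLR3K by 0.31 ± 0.070 SE (adjusted p = 0.00297) and POLR2B by 0.29 ± 0.041 SE (adjusted p = 0.000165). These 4 were higher with ARV-825 than with OTX015, although POLR3G, POLR1C and POLR3K had means below control with both drugs. POLR2L (0.23), POLR2G (0.24), POLR2J3 (0.20), POLR2K (0.22), POLR2D (0.14) and POLR2J (0.17) were called higher, and POLR3A (-0.25) and POLR3E (-0.26) lower.

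For POLR2A the difference was -0.18, with a 95% interval from -0.36 to -0.01 and adjusted p = 0.0662, although the 3 ARV-825 libraries were below the 3 OTX015 libraries; without ARV-825 replicate 2 it was called (-0.22, adjusted p = 0.0476). The intervals for POLR3D (-0.19 to 0.18), POLR1E (-0.17 to 0.14), POLR1A (-0.29 to 0.11) and POLR2C (-0.12 to 0.13) spanned 0, and the drug groups overlapped for each. Of the calls between the drugs 3 were lost in other fits. That of POLR3E was lost without ARV-825 replicate 1 or 3 or OTX015 replicate 1 or 2 (adjusted p from 0.0888 to 0.147), and also with no filter on low values (0.0862), with median-ratio rescaling (0.0749), in a fit of the 2 drug groups alone (0.0717) and in limma's eBayes without a trend (0.0521). That of POLR2J was lost without ARV-825 replicate 1 or 3 or OTX015 replicate 2 or 3 (0.0615 to 0.134), with no filter (0.0731) and without a trend (0.0611), and that of POLR2D without ARV-825 replicate 1 or 2 or OTX015 replicate 1 or 3 (0.0524 to 0.0905).

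After 72 h of RUNX1 knockdown the calls among subunit genes were near the share of all genes. Of the 27, 3 were called higher (11.1%, beside 13.5% of all 10925 tested genes) and 3 lower (11.1%, beside 13.8%), and the median log2 change was -0.03, against -0.01 over all tested genes. The other 21 were not called. POLR1E had 21.9, 20.9 and 21.6 FPKM with RUNX1 shRNA, against 25.7, 26.1 and 24.5 FPKM with non-targeting shRNA (-0.24 ± 0.040 SE, adjusted p = 0.00344). POLR2A had 68.9, 76.6 and 70.0 FPKM with RUNX1 shRNA, against 64.4, 61.5 and 61.0 FPKM with non-targeting shRNA (0.20 ± 0.044 SE, adjusted p = 0.0112). The groups did not overlap for either gene, POLR1E being lower and POLR2A higher with RUNX1 shRNA.

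POLR2M was also higher, with 21.2, 21.4 and 22.2 FPKM with RUNX1 shRNA, against 19.8, 17.7 and 19.0 FPKM with non-targeting shRNA (0.19 ± 0.048 SE, adjusted p = 0.0214), and so was POLR1A, with 17.3, 18.0 and 17.5 FPKM with RUNX1 shRNA, against 15.9, 16.0 and 16.0 FPKM with non-targeting shRNA (0.13 ± 0.039 SE, adjusted p = 0.0362). POLR2G (-0.14 ± 0.042 SE, adjusted p = 0.0388) and POLR3G (-0.22 ± 0.065 SE, adjusted p = 0.0380) were lower, as was ZNRD1 (-0.23 ± 0.058 SE, adjusted p = 0.0208). POLR1B, the gene with the widest fall under ARV-825, was at 24.5, 27.8 and 24.5 FPKM with RUNX1 shRNA, against 26.2, 28.7 and 27.6 FPKM with non-targeting shRNA (-0.10 ± 0.057 SE, adjusted p = 0.227), and the groups overlapped. Without RUNX1 shRNA replicate 2 that POLR1B value was called (-0.16, adjusted p = 0.0479). Of the 6 calls 4 were lost in other fits. That of POLR1A was lost without any of the 6 libraries in turn (adjusted p from 0.0566 to 0.103), that of POLR3G without any library except RUNX1 shRNA replicate 2 (0.0561 to 0.118) and with no filter (0.082), that of POLR2G without RUNX1 shRNA replicate 1 or 2 or non-targeting shRNA replicate 1 or 2 (0.0773 to 0.133), with no filter (0.0833) and without a trend (0.0789), and that of POLR2M without RUNX1 shRNA replicate 3 or non-targeting shRNA replicate 2 or 3 (0.0561 to 0.0735). The ZNRD1 call was lost without RUNX1 shRNA replicate 1 or 2 or non-targeting shRNA replicate 3 (0.0557 to 0.0589) and with no filter (0.0612).

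The factors that bring these enzymes to their genes were taken as 4 lists of partner genes. The shares of all tested genes beside them are 35.8% higher and 38.4% lower with ARV-825, and 36.1% higher and 33.5% lower with OTX015. For Pol I initiation and termination factors, 8 of 9 genes were tested, of which 1 was higher (12.5%) and 4 lower (50%) with ARV-825 (median -0.20), and 1 higher (12.5%) and 2 lower (25%) with OTX015 (median 0.00). UBTF, the nucleolar factor that coats active ribosomal DNA, changed by -0.94 ± 0.041 SE with ARV-825 (adjusted p = 1.02e-08) and by -0.55 ± 0.041 SE with OTX015 (adjusted p = 7.49e-07). For the 20 Pol II general factors 4 were higher (20%) and 6 lower (30%) with ARV-825 (median -0.01), and 5 higher (25%) and 3 lower (15%) with OTX015 (median 0.06), all below the shares of all genes. GTF2B, which encodes TFIIB, changed by 0.62 ± 0.049 SE with ARV-825 and 0.53 ± 0.049 SE with OTX015, and GTF2H2, of the TFIIH core, by -0.87 ± 0.068 SE with ARV-825.

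For the 16 Pol III initiation factors and MAF1, the Pol III repressor, 1 was higher (6.25%) and 6 lower (37.5%) with ARV-825 (median -0.04), and 5 higher and 5 lower (31.2% each) with OTX015 (median 0.11). Each of these shares was below that of all tested genes. The TFIIIC genes GTF3C2 (-0.87 ± 0.049 SE, adjusted p = 6.09e-08) and GTF3C6 (-0.72 ± 0.050 SE, adjusted p = 2.61e-07) fell with ARV-825, and GTF3C6 fell with OTX015 (-1.15 ± 0.050 SE, adjusted p = 1.43e-08), while SNAPC2, of the small nuclear RNA promoter complex, rose with OTX015 (0.65 ± 0.068 SE, adjusted p = 9.51e-06). For the 11 assembly and import factors 2 were higher (18.2%) and 6 lower (54.5%) with ARV-825 (median -0.12), and 0 higher and 5 lower (45.5%) with OTX015 (median -0.07). URI1, a chaperone of polymerase assembly, changed by -0.63 ± 0.057 SE with ARV-825 (adjusted p = 2.02e-06) and by -0.87 ± 0.057 SE with OTX015 (adjusted p = 2.65e-07). With RUNX1 shRNA the 4 lists had medians from -0.07 to 0.03.

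Spread among replicates was taken for the 27 genes alone, with no value over all genes beside it. Their coefficient of variation had a median of 5.94% with ARV-825, 5.66% with OTX015 and 4.19% in control. The median was 4.04% with RUNX1 shRNA and 3.36% with non-targeting shRNA, and the highest value was 20.3%, with ARV-825. Over all tested genes, on the log2 scale, ARV-825 replicate 1 correlated with replicates 2 and 3 of its group at 0.978 and 0.979. Those 2 replicates correlated with each other at 0.991. In GENCODE 29, matched by gene ID for 27 of 27, the spans of 17 genes overlap a gene on the other strand and 8 overlap no gene on either strand, POLR1A, POLR1B, POLR2A, POLR3A and POLR3E among the 8. No source used here says whether the authors counted by strand, so for the 17, POLR3D and POLR2L among them, reads from the opposite strand cannot be told apart.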

How the data were processed

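RNA-seq levels of 15 libraries of OCI-AML5 cells were analysed, from 1 table of 9 drug libraries and 1 of 6 shRNA libraries. The deposited values were read as FPKM, which the authors quantile normalized table by table; the file headers state no unit, and this reading rests on the table names and the values. Reads were processed with TopHat2 2.0 and Cufflinks 2.0 on hg19, per the submitters' processing notes; the annotation and strand setting are not given in the sources used here. Each table lists 19620 entries, of which 16 second copies of pseudoautosomal genes were left out. Read depth is unknown, so precision rests on the replicates.

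Changes were fitted with limma 3.58.1 (R 4.3.3, lmFit and eBayes with a trend, two-sided) on log2(FPKM + 1), 1 fit per table, over genes averaging 1 FPKM or more, with Benjamini-Hochberg adjustment over all of them. The fit was tested on simulated data. Alternatives were a pseudocount of 0.1, no filter, a filter at 5 FPKM, median-ratio rescaling, a fit of the compared groups alone, eBayes without a trend, a replicate block and each library left out. One gene that the name rule matches is not reported here. The subunit genes, the partner lists and the motifs were chosen with earlier results of these data known. Text values were given per library for the subunits with the largest changes and for homologous or alternative subunits, and from each partner list at most the 3 called genes with the largest change were named. Sequences are from RefSeq (GRCh38.p14); hg19 coordinates were not used. Tables were summarised with Python 3.11.15 and pandas 2.3.3.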

Additional observations from a re-analysis of the deposited data

How the results depend on the processing

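No called change of a subunit gene turned its sign in any alternative fit run. For ARV-825 against control 340 of 350 alternative values of the 27 genes kept their side of the threshold, for OTX015 against control 344 of 350, for ARV-825 against OTX015 325 of 350, and for RUNX1 shRNA against non-targeting shRNA 295 of 323. Class medians moved by more than the replicate spread in some fits of each comparison. With a filter at 5 FPKM, which leaves out POLR3F, the Pol III median against control was -0.58 for ARV-825 and -0.59 for OTX015. The cause of the other moves was not tested. The Pol III median was -0.56 for OTX015 with a pseudocount of 0.1. The Pol II median of ARV-825 against OTX015 was 0.19 with median-ratio rescaling.

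With each library left out in turn, the ARV-825 medians against control ranged from -0.88 to -0.70 for Pol I and from -0.09 to 0.02 for shared genes, with the positive value without ARV-825 replicate 2. The OTX015 medians against control ranged from 0.05 to 0.12 for Pol II and from -0.55 to -0.49 for Pol III. For ARV-825 against OTX015 they ranged from -0.18 to -0.06 for Pol I, from 0.12 to 0.18 for Pol II, from -0.17 to 0.04 for Pol III and from 0.06 to 0.14 for shared genes. For RUNX1 shRNA they ranged from -0.16 to -0.07 for Pol I, from -0.03 to 0.02 for Pol II and from -0.05 to 0.00 for Pol III, and the counts ranged from 1 to 2 called higher and from 1 to 3 called lower. The count called lower with RUNX1 shRNA was 1 with no filter, where POLR2G and POLR3G were no longer called. Further genes not called in the main fits passed the threshold with 1 library left out. Against control they were POLR2I for ARV-825 without control replicate 1 (adjusted p = 0.0261), POLR2G for OTX015 without OTX015 replicate 3 (0.0130), POLR2H for OTX015 without OTX015 replicate 2 (0.0263) and POLR2J for OTX015 without control replicate 3 (0.0431). Between the drugs they were POLR2J2 without ARV-825 replicate 1 (0.0212), POLR2H without OTX015 replicate 3 (0.0312) and POLR2I without OTX015 replicate 1 (0.0407). With RUNX1 shRNA they were POLR2J3 without RUNX1 shRNA replicate 3 (0.0135), POLR2L without non-targeting shRNA replicate 1 (0.022) and POLR2I without RUNX1 shRNA replicate 1 (0.0485). Other settings brought past the threshold POLR1C with ARV-825 in a fit of the 2 groups compared (0.0485) and POLR2F with ARV-825 under median-ratio rescaling (0.0414). With OTX015 they did so for POLR2E under rescaling (0.0254) and POLR2H under rescaling (0.0157) and in the 2-group fit (0.0464). Between the drugs POLR2F (0.0254) and POLR2I (0.0244) were called under rescaling.

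Deviations of libraries of different groups were correlated to see whether the replicate numbers pair them. Pairs with the same number had correlations from -0.321 to 0.061 in the drug table and from -0.003 to 0.061 in the shRNA table. Pairs with different numbers ran from -0.224 to 0.409 and from -0.07 to 0.022. With 3 libraries per group these values cannot settle whether the samples were paired or shared a batch. With the number as a replicate block 1 subunit gene was called lower with RUNX1 shRNA, POLR1A, POLR2G and POLR3G were no longer called there, and POLR2J was no longer called between ARV-825 and OTX015.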
